A study of Mus musculus with 9 samples.

Results

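The genes described here encode the proteins of the mitochondrial ribosome that carry an Mrpl or Mrps symbol. They were chosen by name, as every protein-coding gene of the count tables whose GENCODE M21 symbol starts with Mrpl or Mrps and a digit, and 77 of the 29678 genes in the tables met that rule. By their known place, 50 belong to the large subunit, 26 to the small subunit, and 1, Mrps36, to neither, since it is now described as a subunit of the 2-oxoglutarate dehydrogenase complex. Mrpl53 was not analysed here.

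Paired-end libraries made by oligo(dT) capture were sequenced from mouse kidney taken 24 h into reperfusion, in 3 groups. Sham kidneys had the operation without ischemia. In bIRI, bilateral ischemia-reperfusion injury, the blood flow of both kidneys is stopped and restored. BHBNa_bIRI kidneys had this injury too, and were pretreated with beta-hydroxybutyrate, a ketone body, as its sodium salt. No group had beta-hydroxybutyrate without injury. The labels give 3 libraries per group, and give no strain, age, sex, dose or timing of the pretreatment. They do not say whether libraries were from separate animals, so p-values cover only the library-to-library spread. The bIRI replicate 2 table held, in all 29678 genes, the rounded-down average of the tables of replicates 1 and 3. It was left out, which leaves 8 libraries, 2 of them bIRI.

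Mitochondrial ribosomes translate the proteins that are encoded in mitochondrial DNA, all of them core subunits of the respiratory chain and the ATP synthase. Their ribosomal RNAs come from mitochondrial DNA, while every ribosomal protein is encoded in the nucleus, made in the cytosol and imported. Some of these proteins have counterparts in bacterial ribosomes and others are found only in mitochondria. The proximal tubule, the segment that reabsorbs most of the filtrate, is rich in mitochondria and is the main site of damage in ischemic kidney injury.

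Total counts ranged from 33477985 to 45909063 per library, and the 77 genes took 0.343% to 0.512% of them. All 77 passed the filter on low counts, and the lowest count of any of them in any library was 231. Levels are given as CPM, each library's counts divided by its total after TMM scaling (trimmed mean of M-values), which sets the libraries to a common composition. The labelled tissue had its defining genes: 9 proximal tubule markers summed to 36440 to 56800 CPM in sham, and none was at 0. The tubular injury marker Havcr1 had 3.23, 1.51 and 4.88 CPM in sham, 1929 and 534 CPM in bIRI, and 1235, 1094 and 1280.0 CPM in BHBNa_bIRI, with both injured groups far above sham. Within bIRI the libraries differed: proximal tubule markers summed to 24890 CPM in replicate 1 and 9552 CPM in replicate 3, and 4 markers of the thick ascending limb, the next reabsorbing segment, to 1508 and 4266 CPM.

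In sham kidney the 77 genes covered a wide range of levels. Per kilobase of the longest protein-coding transcript, their mean level ran from 4.42 to 180.7 CPM per kb with a median of 33.7. Mrpl12, which forms the flexible stalk that recruits translation factors, was the highest at 180.7 ± 12.7 CPM per kb (SD, n = 3). Mrpl42 followed at 168 ± 20.9 CPM per kb and Mrps21, a small-subunit protein with a bacterial counterpart, at 149.7 ± 57.5 CPM per kb. The SD ranges of these 3 genes overlapped, and no test compared them. Mrpl19 was the lowest at 4.42 ± 0.674 CPM per kb, next to Mrps25 at 4.81 ± 0.666 and Mrpl47 at 5.27 ± 0.199. Those low values rest on transcripts of 5000, 6073 and 3364 bases, against a median of 1339 bases over the 77 genes.

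**Figure D1:**
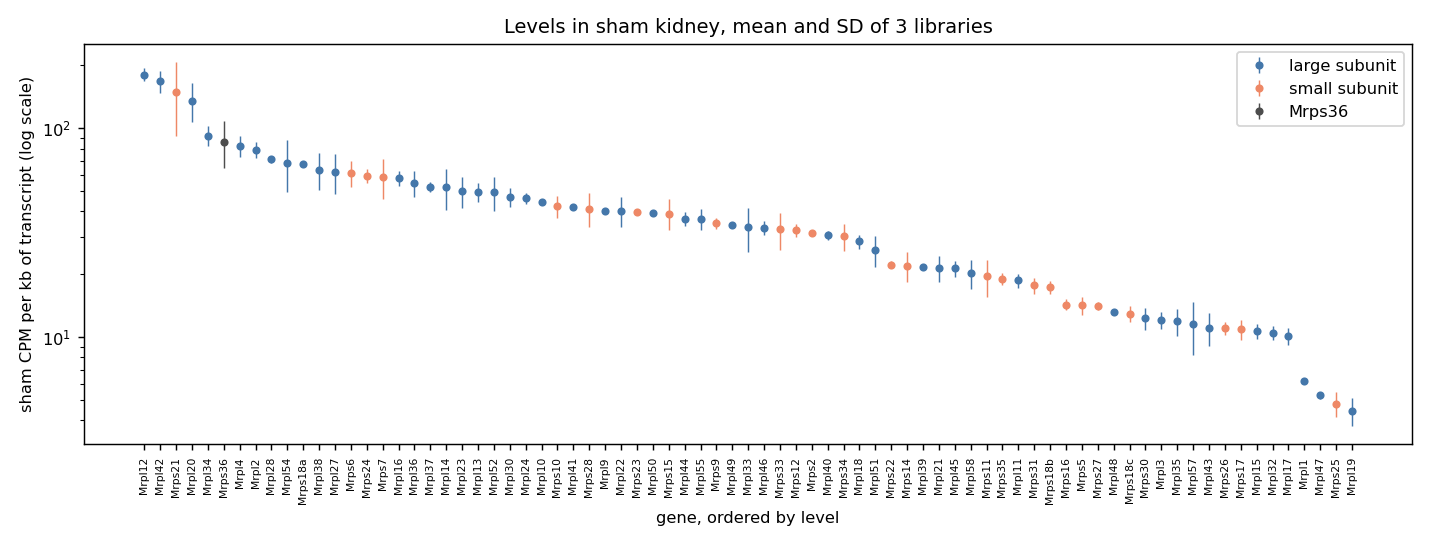
Mean level in the 3 sham libraries (CPM per kb of the longest protein-coding transcript, log scale) for each of the 77 genes, ordered by level, with bars for the SD and colours for the subunit. Levels run from 4.42 for Mrpl19 to 180.7 for Mrpl12, and both subunits are spread over the range.

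Summed over the 77 genes, the level was 3797, 3927 and 4541 CPM in sham, 3493 and 2501 CPM in bIRI, and 5276, 4170 and 5440 CPM in BHBNa_bIRI. Both bIRI libraries lay below every sham library, and 2 of the 3 BHBNa_bIRI libraries lay above every sham library. The subunits showed the same order: the large-subunit genes summed to 2672 to 3132 CPM in sham, 1721 to 2420 in bIRI and 2918 to 3793 in BHBNa_bIRI, and the small-subunit genes to 1076 to 1331, 749.9 to 1042 and 1206 to 1596 CPM. These orders hold for TMM-scaled CPM. As unscaled shares of all counts, the 77 genes took 0.354%, 0.375% and 0.404% in sham. They took 0.387% and 0.343% in bIRI, and 0.512%, 0.43% and 0.451% in BHBNa_bIRI. By these shares bIRI replicate 1 lay inside the sham range. The TMM factors were 0.93, 0.95 and 0.89 in sham, 1.11 and 1.37 in bIRI, and 0.97, 1.03 and 0.83 in BHBNa_bIRI. In bulk tissue, fewer cells of a type and less RNA per cell cannot be told apart.

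**Figure D2:**
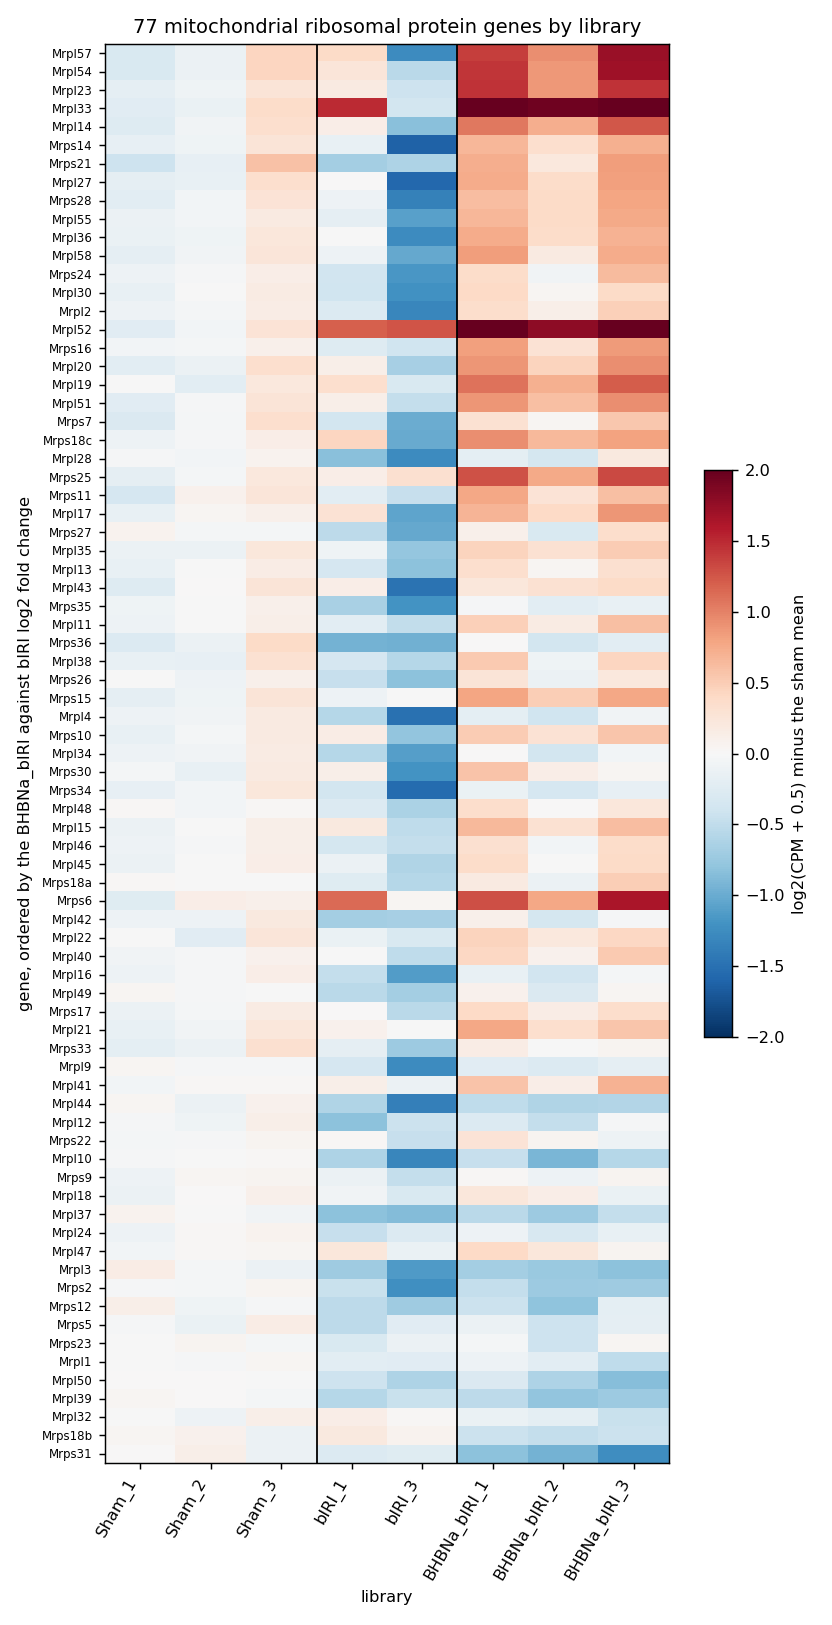
Each of the 77 genes (rows, ordered by the BHBNa_bIRI against bIRI fold change) in each of the 8 libraries (columns), as log2(CPM + 0.5) minus the mean of the 3 sham libraries, with red for higher and blue for lower. The column of bIRI replicate 3 is below all sham libraries for 70 of the 77 genes, and Mrps31 and Mrps18b at the bottom are lowest in BHBNa_bIRI. The share of all genes below sham in that library is not given here.

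The first comparison, bIRI against sham, asks what injury did to these transcripts. With edgeR's quasi-likelihood test and Benjamini-Hochberg adjustment over 17967 genes, 20 of the 77 genes were lower in bIRI and 1 was higher at an adjusted p under 0.05, beside 16.2% and 18.9% of all genes tested. The shares of the 77 were 26% and 1.3%. The median log2 fold change was -0.41, against 0.08 over all genes tested, and 10 of the 77 values were above 0. The groups did not overlap for 41 lower genes and 1 higher gene, against 27.2% and 28.7% of all genes tested.

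The largest fall was that of Mrpl28, a large-subunit protein with a bacterial counterpart (GRCm38, chr17:26123500-26126613, plus strand). It had 74.8, 73.2 and 79.1 CPM in sham, 42 and 31.4 CPM in bIRI, and 66.2, 58.9 and 86.7 CPM in BHBNa_bIRI. Both bIRI values were below every sham value (log2 fold change -1.04, SE 0.21, adjusted p = 0.00542). Mrpl3, which lies at the core of the large subunit and in which human mutations cause a cardiomyopathy, had 53.2, 46.5 and 44.3 CPM in sham, 29 and 21.6 CPM in bIRI, and 29.8, 28.4 and 27 CPM in BHBNa_bIRI. It fell in bIRI (log2 fold change -0.92, SE 0.18, adjusted p = 0.00483), again with no overlap. Mrpl44, a subunit with a ribonuclease III fold, had 53.9, 48.1 and 55.7 CPM in sham, 34.3 and 20.1 CPM in bIRI, and 36.9, 34.2 and 34.7 CPM in BHBNa_bIRI. All injured kidneys lay below sham in this gene, and it fell in bIRI (log2 fold change -0.95, SE 0.23, adjusted p = 0.0105).

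In the stalk and its base 2 of 3 genes passed as lower. Mrpl12 had 233, 224 and 256 CPM in sham, 135 and 176 CPM in bIRI, and 196, 170.5 and 233 CPM in BHBNa_bIRI, which put both bIRI values below every sham value (log2 fold change -0.61, SE 0.21, adjusted p = 0.0472). That call was lost when each library's trends in transcript length and GC content were taken out as offsets (log2 fold change -0.20, adjusted p = 0.507). Mrpl10, the protein that anchors the stalk, had 74.7, 75.5 and 77.2 CPM in sham, 49.3 and 30.3 CPM in bIRI, and 54.7, 39.96 and 51 CPM in BHBNa_bIRI. It fell by more (log2 fold change -0.93, SE 0.23, adjusted p = 0.0132). Mrpl11, also at the stalk base, had 52.7, 56.3 and 61.6 CPM in sham, 48.8 and 40.1 CPM in bIRI, and 79.4, 63.8 and 86 CPM in BHBNa_bIRI, and did not pass (log2 fold change -0.35, SE 0.19, adjusted p = 0.168).

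Other large-subunit genes past the threshold were Mrpl4 (log2 fold change -0.96), Mrpl37 (-0.85) and Mrpl34 (-0.83). Their adjusted p-values were 0.0209, 0.00354 and 0.0156. In the small subunit, Mrps35 had 74.1, 78.3 and 84.4 CPM in sham, 50.05 and 34 CPM in bIRI, and 77.9, 68 and 71.4 CPM in BHBNa_bIRI and fell (log2 fold change -0.91, SE 0.20, adjusted p = 0.00709), as did Mrps2, a protein with a bacterial counterpart (log2 fold change -0.79, SE 0.23, adjusted p = 0.0261). Mrps12, which lines the decoding centre, had 31, 27 and 28 CPM in sham, 19.8 and 17.3 CPM in bIRI, and 21, 16.1 and 24.8 CPM in BHBNa_bIRI. It passed narrowly (log2 fold change -0.62, SE 0.21, adjusted p = 0.0436), and with the offsets it did not (log2 fold change -0.27, adjusted p = 0.303). Mrps36 had 48.6, 54.7 and 77.6 CPM in sham, 30.5 and 30.2 CPM in bIRI, and 59.5, 45.7 and 51.2 CPM in BHBNa_bIRI, and the fall in bIRI passed (log2 fold change -0.99, SE 0.23, adjusted p = 0.00895).

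The gene that rose was Mrpl52, a large-subunit protein found only in mitochondria (ENSMUSG00000010406, GRCm38, chr14:54426909-54429756, plus strand). It had 19.2, 21.8 and 27.5 CPM in sham, 52.6 and 54.6 CPM in bIRI, and 113, 79.2 and 134 CPM in BHBNa_bIRI. The 3 groups did not overlap, with sham the lowest and BHBNa_bIRI the highest (log2 fold change 1.23, SE 0.24, adjusted p = 0.00399). By origin, assigned here from general knowledge, 11 of 47 genes with a bacterial counterpart fell and none rose, and 8 of 29 genes found only in mitochondria fell and 1 rose, with medians of -0.38 and -0.44. These counts depend on that classing, which put Mrps18a with the bacterial counterparts and its relative Mrps18b with the mitochondria-specific genes.

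The fall was larger in bIRI replicate 3. That library was below bIRI replicate 1 in 66 of the 77 genes, with a median log2 difference of -0.51 and a range of -1.92 to 0.38, and it was below every sham library in 70 genes, against 41 for replicate 1. Shares of all genes for these orders are not given here. Relative to the sham mean, the median log2 level of the 77 was -0.21 in replicate 1 and -0.66 in replicate 3. Over all genes tested it was 0.02 and 0.03. The median log2 fold change was -0.22 without bIRI replicate 3 and -0.76 without bIRI replicate 1. The number lower was 11, 10 and 7 without sham replicates 1, 2 and 3, and 11 when only the libraries of these 2 groups were fitted. The share of all genes called in those fits is not given here. With length and GC offsets 15 of the 77 were lower and 3 higher, beside 2935 and 3634 of all 17967 genes tested. Of the 21 calls, 12 remained. The 9 that were lost were Mrpl12, Mrpl39, Mrpl42, Mrpl49, Mrpl9, Mrps12, Mrps2, Mrps26 and Mrps27.

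The second comparison, BHBNa_bIRI against bIRI, asks what the pretreatment changed within injury. By the same test 30 of the 77 genes were higher and 2 were lower after pretreatment, beside 4.88% and 8.65% of all genes tested. The shares of the 77 were 39% and 2.6%. The median log2 fold change was 0.69, against -0.05 over all genes tested, and 71 of the 77 values were above 0. The groups did not overlap for 57 higher and 3 lower genes, against 22.2% and 23.8% of all genes tested. All 3 BHBNa_bIRI libraries were above bIRI replicate 1 in 60 genes and above replicate 3 in 66. Shares of all genes for these orders against a single bIRI library are not given here.

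The adjusted p-values of these calls ran just under the threshold, from 0.0275 upward. When the libraries of these groups were fitted alone none passed (lowest adjusted p = 0.108, with 45 higher and 2 lower at an unadjusted p under 0.05), nor did any without sham replicate 1 or 2 or without BHBNa_bIRI replicate 1 or 3, where 42 to 50 were higher and 2 lower at an unadjusted p under 0.05. The share of all genes at that unadjusted cut is not given here, so these counts cannot be set against a background. DESeq2 called 45 higher and 2 lower, and without BHBNa_bIRI replicate 2 or sham replicate 3, 19 and 9 were higher and none lower. The share of all genes called under these settings is not given here. The median log2 fold change was 0.48 without bIRI replicate 3 and 1.01 without bIRI replicate 1.

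The largest change was that of Mrpl57, a mitochondria-specific protein of the large subunit. It had 25.9, 29.6 and 43.7 CPM in sham, 42.1 and 13.2 CPM in bIRI, and 85, 62.2 and 108 CPM in BHBNa_bIRI. All 3 pretreated libraries were above all others (log2 fold change 1.62, SE 0.46, adjusted p = 0.0474). Mrpl54, also found only in mitochondria, had 32.6, 37.2 and 54.4 CPM in sham, 48.1 and 27.7 CPM in bIRI, and 109, 73.8 and 133 CPM in BHBNa_bIRI, with the same order (log2 fold change 1.47, SE 0.34, adjusted p = 0.0323). Mrpl23, which sits beside the exit of the peptide tunnel, had 32.3, 34.4 and 44.1 CPM in sham, 41.5 and 27.3 CPM in bIRI, and 101, 67.4 and 100.3 CPM in BHBNa_bIRI. Replicate 1 of bIRI was inside the sham range, replicate 3 was below it, and the pretreated values were above all others (log2 fold change 1.38, SE 0.27, adjusted p = 0.0275). Mrpl14, on the face that meets the small subunit, had 27.5, 31.4 and 41.9 CPM in sham, 36.2 and 18.3 CPM in bIRI, and 68.9, 55 and 78.6 CPM in BHBNa_bIRI, and passed as well (log2 fold change 1.31, SE 0.31, adjusted p = 0.0341).

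Mrpl52, the gene that rose with injury, was higher again with pretreatment (log2 fold change 1.02, SE 0.25, adjusted p = 0.0349), but with length and GC offsets the direction turned (log2 fold change -0.30, adjusted p = 0.39). Mrpl33, a short protein with a bacterial counterpart, had 13.4, 14.4 and 20.5 CPM in sham, 45.6 and 12.1 CPM in bIRI, and 84.8, 62.1 and 73.6 CPM in BHBNa_bIRI. Its bIRI libraries lay on either side of the sham range, and the difference did not pass (log2 fold change 1.35, SE 0.46, adjusted p = 0.0761). Mrpl58, which frees peptides from stalled ribosomes, had 45.9, 49.7 and 62 CPM in sham, 48.6 and 25.3 CPM in bIRI, and 93.3, 59.4 and 87.2 CPM in BHBNa_bIRI and passed (log2 fold change 1.11, SE 0.31, adjusted p = 0.0434). Mrpl45, which ties the tunnel exit to the inner membrane, had 47.5, 51.5 and 56.6 CPM in sham, 47.5 and 33.8 CPM in bIRI, and 67, 51.3 and 67.4 CPM in BHBNa_bIRI. It did not pass (log2 fold change 0.61, SE 0.21, adjusted p = 0.0755).

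**Figure D3:**
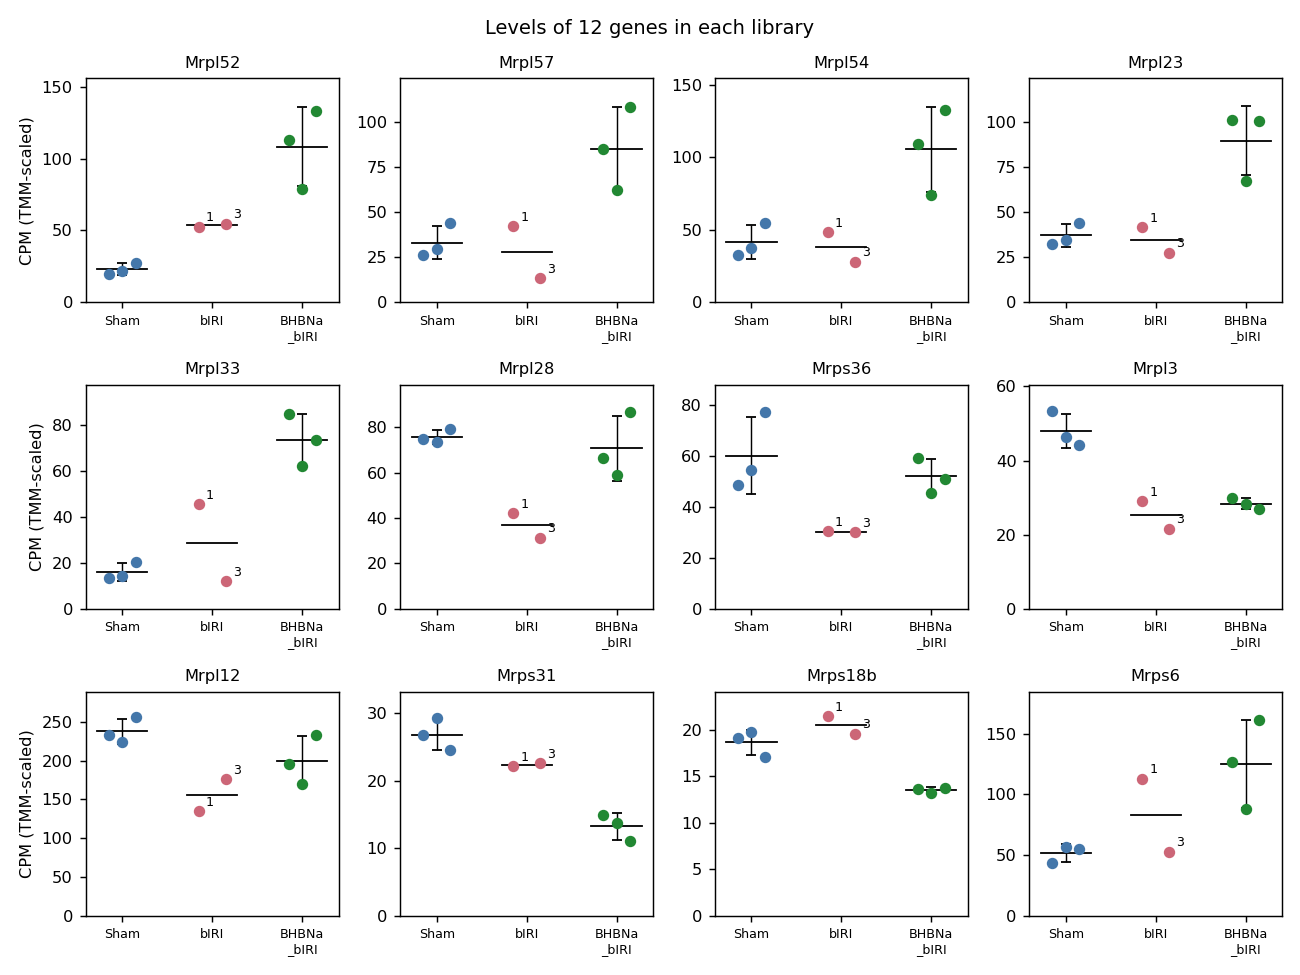
Levels (TMM-scaled CPM, linear axes from 0) of 12 genes in each of the 8 libraries, with a line for the group mean, bars for the SD where there are 3 libraries, and the replicate number beside each bIRI point. In these CPM values, without length and GC offsets, Mrpl52 rises over the 3 groups, Mrpl28 is low in bIRI, Mrpl3 is low in both injured groups, and Mrps31 is lowest after pretreatment.

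In the small subunit the called genes included Mrps21, Mrps28 and Mrps24. Mrps21 had 52.1, 62.1 and 105 CPM in sham, 43.3 and 45.2 CPM in bIRI, and 116, 80.5 and 125 CPM in BHBNa_bIRI (log2 fold change 1.28, SE 0.31, adjusted p = 0.0354). Mrps28 had 27.4, 30.7 and 38.8 CPM in sham, 29.8 and 12.3 CPM in bIRI, and 49.4, 41.9 and 55.7 CPM in BHBNa_bIRI, with bIRI replicate 1 inside the sham range and replicate 3 below it (log2 fold change 1.22, SE 0.34, adjusted p = 0.0454). Mrps16, in which human mutations cause a fatal respiratory chain deficiency, had 35.4, 35.7 and 39.6 CPM in sham, 30.6 and 27.9 CPM in bIRI, and 65.3, 45.1 and 66.8 CPM in BHBNa_bIRI. Its bIRI libraries were close to each other and the pretreated libraries were above all others (log2 fold change 1.01, SE 0.20, adjusted p = 0.0284).

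The 2 genes that were lower after pretreatment were both classed here as mitochondria-specific proteins of the small subunit. Mrps31 (GRCm38, chr8:22411361-22429665, plus strand) had 26.8, 29.2 and 24.5 CPM in sham, 22.1 and 22.6 CPM in bIRI, and 14.9, 13.7 and 11.1 CPM in BHBNa_bIRI. Every pretreated library was below every other library (log2 fold change -0.76, SE 0.18, adjusted p = 0.0345). Mrps18b (GRCm38, chr17:35910379-35916389, minus strand), 1 of 3 proteins related to bacterial S18, had 19.1, 19.8 and 17.1 CPM in sham, 21.5 and 19.6 CPM in bIRI, and 13.6, 13.2 and 13.8 CPM in BHBNa_bIRI. The bIRI libraries overlapped the sham range and the pretreated ones were below both (log2 fold change -0.60, SE 0.16, adjusted p = 0.0425), while 30.5% of its exon bases overlap an antisense gene.

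The other genes of that family had values on the other side of 0. Mrps18c, the S18 protein in the place of the bacterial one, had 9.79, 10.4 and 11.7 CPM in sham, 14.5 and 5.04 CPM in bIRI, and 20.6, 17 and 18.9 CPM in BHBNa_bIRI. Mrps18a, which sits in the large subunit, had 60.1, 59.1 and 59.2 CPM in sham, 50.5 and 39.8 CPM in bIRI, and 67.6, 54.8 and 83.6 CPM in BHBNa_bIRI. Neither passed, with log2 fold changes of 0.95 and 0.61 and adjusted p-values of 0.106 and 0.0752. Mrps30, a further large-subunit protein despite its symbol, had 39.8, 36.9 and 46.4 CPM in sham, 44.2 and 17.5 CPM in bIRI, and 60.7, 45 and 42.1 CPM in BHBNa_bIRI and did not pass (log2 fold change 0.67, SE 0.34, adjusted p = 0.195). Mrps5, near the entry of the messenger RNA, had 62.7, 57.9 and 70.3 CPM in sham, 43.9 and 54.2 CPM in bIRI, and 58.7, 47.6 and 55.8 CPM in BHBNa_bIRI, and its pretreated libraries overlapped both other groups (log2 fold change 0.14, SE 0.18, adjusted p = 0.613).

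Fold changes in this comparison moved with transcript length over all genes. Across 12940 genes with a mean log2 CPM above 1, Spearman's rho between length and the log2 fold change was -0.52, and with GC content it was 0.44, while over the 77 genes rho was -0.27 and 0.18. Genes are not independent replicates, and these are descriptions. The 77 genes have short transcripts. Their median length was 1339 bases, and that of all genes tested was 2760.0 bases. The shortest 26 of them had 14 higher and a median of 0.97, the middle 25 had 4 higher, 2 lower and a median of 0.50, and the longest 26 had 12 higher and a median of 0.72.

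Within single libraries the same measure varied in every group. Over the 12940 genes, rho between length and the level relative to the sham mean was 0.39, 0.23 and -0.46 in sham replicates 1 to 3, 0.06 and 0.33 in bIRI replicates 1 and 3, and -0.20, -0.10 and -0.22 in BHBNa_bIRI. Sham replicate 3 was the highest of its group in 64 of the 77 genes. With each library's trends in length and GC content taken out as offsets, none of the 77 passed in BHBNa_bIRI against bIRI (edgeR, lowest adjusted p = 0.0518), and 2 of all 17967 genes passed. At an unadjusted p under 0.05, 30 were higher and 6 lower, and the share of all genes at that cut is not given here. With these offsets the sign turned in 26 of the 77, among them 3 of the 32 called genes, Mrpl52 (-0.30), Mrps15 (-0.12) and Mrpl46 (-0.061). The median became 0.21 with those offsets and 0.31 with offsets from the coding length, by which 3 passed higher and 1 lower. The fall to 0.21 did not hold at every transcript length. With the length and GC offsets, the median of the shortest 26 genes went from 0.97 to 0.12. That of the middle 25 went from 0.50 to -0.056, while that of the longest 26 went up from 0.72 to 1.00. DESeq2 was not run with offsets.

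**Figure D4:**
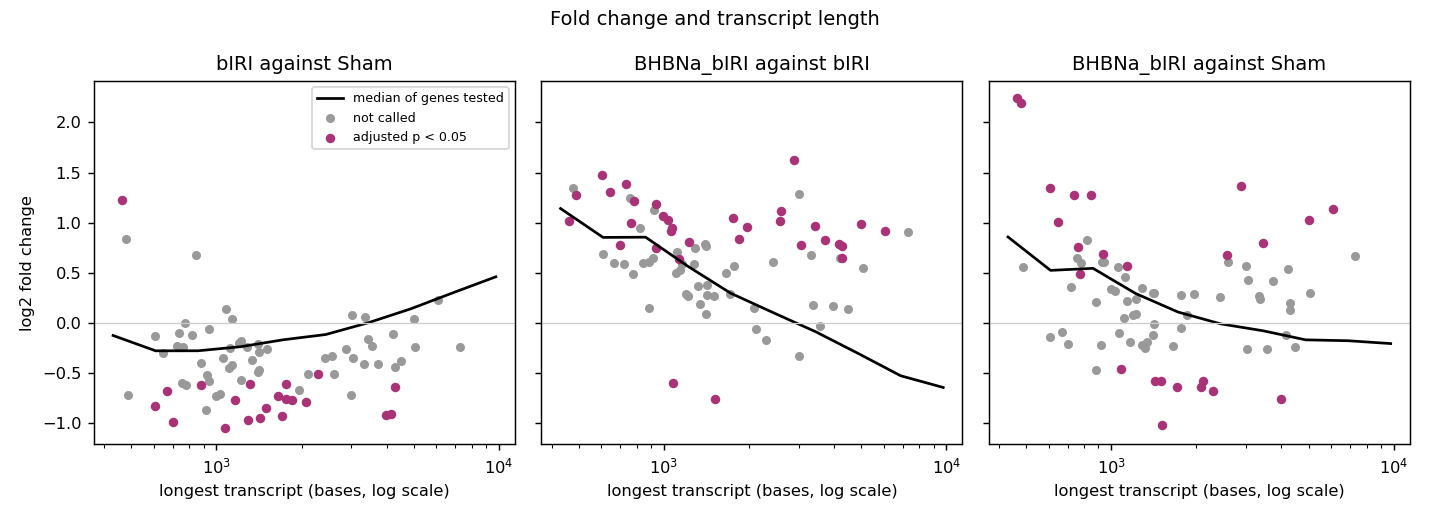
Log2 fold change of each of the 77 genes against the length of its longest protein-coding transcript (bases, log scale) in the 3 comparisons, with purple points for adjusted p under 0.05 and a black line for the median of all genes tested in bins of length. In BHBNa_bIRI against bIRI the line falls from 1.14 in the shortest bin to -0.64 in the longest, and the short genes among the 77 lie around it.

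BHBNa_bIRI against sham shares its libraries with both other comparisons, and asks where the pretreated kidneys stood relative to uninjured ones. Here 15 of the 77 genes were higher and 9 lower, beside 21.3% and 22.2% of all genes tested. The shares of the 77 were 19.5% and 11.7%, so that neither count exceeds the background. The median log2 fold change was 0.26, against 0.04 over all genes tested. The groups did not overlap for 28 higher and 13 lower genes, against 32.6% and 32.2% of all genes tested. With upper-quartile scaling 22 were higher and 7 lower, and the share of all genes called with it is not given here.

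Among the 30 genes higher than bIRI after pretreatment, 11 were also higher than sham: Mrpl14, Mrpl19, Mrpl20, Mrpl23, Mrpl51, Mrpl52, Mrpl54, Mrpl57, Mrps15, Mrps16 and Mrps25. Mrpl52 had the largest difference from sham (log2 fold change 2.25, SE 0.22, adjusted p = 8.96e-05), followed by Mrpl33 (log2 fold change 2.19, SE 0.41, adjusted p = 0.00264). Mrpl57 and Mrpl54 followed with 1.37 and 1.35 on the log2 scale (adjusted p = 0.0202 and 0.00554). Mrpl51, a mitochondria-specific protein, had 75.5, 87.1 and 106 CPM in sham, 96.5 and 63.8 CPM in bIRI, and 165, 135 and 169 CPM in BHBNa_bIRI, with all pretreated libraries above all others (log2 fold change 0.80, SE 0.21, adjusted p = 0.0124).

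Some of these values share bases with other genes, and the strand setting of the counts is not given in the sources used here. Mrps25 had 25.6, 28.3 and 33.6 CPM in sham, 31.9 and 36.4 CPM in bIRI, and 70.6, 49.2 and 73.4 CPM in BHBNa_bIRI (log2 fold change 1.14, SE 0.19, adjusted p = 0.00144), but 69.8% of its exon bases overlap Nr2c2 on the opposite strand. Mrpl19 had 21.8, 18.9 and 25.6 CPM in sham, 27.8 and 17.7 CPM in bIRI, and 47.1, 36.1 and 51.7 CPM in BHBNa_bIRI (log2 fold change 1.02, SE 0.22, adjusted p = 0.00502) and shares 36% with Gcfc2. Mrps6, a small-subunit protein with a bacterial counterpart, had 43.2, 56.6 and 55.2 CPM in sham, 113 and 52.7 CPM in bIRI, and 127, 88.2 and 161 CPM in BHBNa_bIRI (log2 fold change 1.28, SE 0.30, adjusted p = 0.00839). It shares 10.4% of its exon bases, on the same strand, with the inositol transporter gene Slc5a3, which had 42.3, 60.05 and 45.2 CPM in sham, 230.2 and 267 CPM in bIRI, and 71.9, 82.5 and 79.8 CPM in BHBNa_bIRI. These genes are uncertain to that extent.

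Another 6 genes were lower in bIRI than in sham and higher in BHBNa_bIRI than in bIRI, namely Mrpl28, Mrpl30, Mrps26, Mrps27, Mrps35 and Mrps36. None of the 6 passed between BHBNa_bIRI and sham, while with length and GC offsets Mrpl28 (log2 fold change -0.67, adjusted p = 0.00235) and Mrps36 (log2 fold change -0.60, adjusted p = 0.0218) passed as lower than sham. Mrpl30 had 73.8, 81.5 and 91.6 CPM in sham, 61.9 and 35 CPM in bIRI, and 109, 84.5 and 107 CPM in BHBNa_bIRI, and its difference from sham was 0.28 with SE 0.22. Mrpl28 differed from sham by -0.10 (SE 0.19) and Mrps35 by -0.12 (SE 0.17). A difference that missed the threshold does not show equal levels.

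The 9 genes lower than sham after pretreatment were Mrps31, Mrps18b, Mrpl3, Mrpl10, Mrpl37, Mrpl39, Mrpl44, Mrpl50 and Mrps2. Mrps31 had the largest fall (log2 fold change -1.02, SE 0.17, adjusted p = 0.0012), and Mrpl3 was next (log2 fold change -0.76, SE 0.16, adjusted p = 0.00484), with pretreated values of 27 to 29.8 CPM against 44.3 to 53.2 CPM in sham. Mrpl39, a mitochondria-specific large-subunit protein, had 51.3, 50.1 and 48.5 CPM in sham, 33.6 and 36.5 CPM in bIRI, and 34.6, 28.7 and 29.99 CPM in BHBNa_bIRI. Its 5 injured libraries were all below sham (log2 fold change -0.68, SE 0.14, adjusted p = 0.00396). Mrpl50, of the same class, had 83.8, 83.7 and 83 CPM in sham, 62.6 and 54.3 CPM in bIRI, and 67.9, 54.2 and 46 CPM in BHBNa_bIRI, and passed in this comparison and not in the other 2 (log2 fold change -0.58, SE 0.17, adjusted p = 0.0219). Of these 9, 7 did not pass between BHBNa_bIRI and bIRI.

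Counts in this comparison moved with single libraries. The higher and lower counts were 8 and 4 without sham replicate 1, 7 and 4 without replicate 2, 15 and 5 without replicate 3, 17 and 4 without BHBNa_bIRI replicate 2, and 10 and 5 without replicate 3. The share of all genes called in these fits is not given here. With length and GC offsets 17 of the 77 were higher and 17 lower, beside 4280 and 3991 of all 17967 genes tested. The median was 0.064, and 18 of the 24 calls remained. The 6 that were lost were Mrpl14, Mrpl20, Mrpl21, Mrpl41, Mrps15 and Mrps2.

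The start sites of these genes were searched for 3 short motifs of factors known for nuclear genes of mitochondrial function, because many of the 77 moved together. The motifs were the core CGCATGCG of nuclear respiratory factor 1 (NRF1), CCGGAAG of ETS factors such as the GA-binding protein, and AAGATGGCG of YY1, on both strands, from 250 bases before to 50 bases after each RefSeq start (GRCm38.p6). CCGGAAG can run on into AAGATGGCG through a shared AAG, so that 1 stretch can count for both. Of 68 genes with a window, 25 held the ETS motif (36.8%), 8 the YY1 motif (11.8%) and 7 the NRF1 core (10.3%), and 35 held any of the 3 (51.5%). Over all 27025 genes with a window the shares were 9.93%, 1.64%, 2.07% and 12.8%, and over the 12454 of them tested for expression 17.3%, 3.01%, 3.67% and 22.3%.

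Of 25 genes with a window that were higher in BHBNa_bIRI than in bIRI, 9 held the ETS motif (36%) and none the NRF1 core, and of 18 that were lower in bIRI than in sham, 5 held the ETS motif (27.8%) and 3 the NRF1 core (16.7%). Of 41 not called between BHBNa_bIRI and bIRI, 15 held the ETS motif (36.6%) and 6 the NRF1 core (14.6%). Among 49 not called between bIRI and sham, 19 held the ETS motif (38.8%) and 4 the NRF1 core (8.16%). Mrps18b held the NRF1 core 224 bases before its start. A match is a description of letters, and no match says only that these letters are not in the window.

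Upstream bases of 3 called genes with the ETS motif are printed 5′ to 3′ on the strand of the gene, with the motif in capitals. They are the called genes with the largest changes whose upstream bases hold a searched motif. In Mrpl52 (chr14:54426789-54426908, plus strand) and Mrps16 (chr14:20393495-20393614, minus strand) the motif is on the opposite strand and so reads CTTCCGG, and in Mrpl58 (chr11:115403632-115403751, plus strand) it reads CCGGAAG.
Mrpl52: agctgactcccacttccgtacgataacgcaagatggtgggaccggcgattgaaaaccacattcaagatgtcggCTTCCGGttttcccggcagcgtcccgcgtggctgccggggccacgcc
Mrpl58: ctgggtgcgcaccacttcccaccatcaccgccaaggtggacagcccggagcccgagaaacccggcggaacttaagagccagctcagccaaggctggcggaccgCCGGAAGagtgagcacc
Mrps16: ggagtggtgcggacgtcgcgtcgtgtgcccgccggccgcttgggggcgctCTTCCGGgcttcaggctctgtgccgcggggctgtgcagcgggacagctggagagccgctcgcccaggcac

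Other genes of mitochondrial translation were taken from lists by role. The 5 ribosomal proteins with other symbols included 3 that were higher in BHBNa_bIRI than in bIRI, Aurkaip1 (1.37), Gadd45gip1 (1.28) and Dap3 (0.67), with a median of 0.71. Dap3, a GTP-binding protein of the small subunit, had 93.5, 94 and 102 CPM in sham, 50.1 and 37.9 CPM in bIRI, and 72.8, 61.8 and 74.9 CPM in BHBNa_bIRI. It fell in bIRI (log2 fold change -1.14, SE 0.19, adjusted p = 0.00181) and stayed below sham after pretreatment (log2 fold change -0.47, SE 0.16, adjusted p = 0.0393). Ptcd3 was lower than sham after pretreatment (log2 fold change -1.16, SE 0.24, adjusted p = 0.00426), and in bIRI its difference from sham did not pass (log2 fold change -0.69, SE 0.27, adjusted p = 0.0758).

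Of the 27 genes that assemble the ribosome and modify its RNA, 13 were lower and none higher in bIRI than in sham, with a median of -0.57. In BHBNa_bIRI against bIRI 3 were higher, namely Mrm3, Eral1 and Mtg2, with a median of 0.27, and against sham 12 were lower and 1 higher with a median of -0.47. Eral1, which chaperones the small ribosomal RNA, had 28.1, 29.1 and 32.4 CPM in sham, 19.7 and 14.1 CPM in bIRI, and 33.2, 26.9 and 31.6 CPM in BHBNa_bIRI, and its pretreated libraries overlapped sham. Eral1 was higher in BHBNa_bIRI than in bIRI (log2 fold change 0.86, SE 0.20, adjusted p = 0.0326). Fastkd2, an RNA-binding protein needed for the large ribosomal RNA, had 39.8, 36.8 and 35.9 CPM in sham, 19.6 and 19.7 CPM in bIRI, and 22.4, 21 and 17.6 CPM in BHBNa_bIRI. It was lower in both injured groups, and did not pass between them (log2 fold change 0.05, SE 0.17, adjusted p = 0.858).

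Among the factors that drive mitochondrial translation edgeR called no gene higher in any of the 3 comparisons. Of 14 tested, 8 were lower in bIRI than in sham and 8 lower in BHBNa_bIRI than in sham, with medians of -0.76 and -0.65. Between BHBNa_bIRI and bIRI 1 was lower, the elongation factor Gfm1, and the median was -0.24. Gfm1 had 144, 138 and 114 CPM in sham, 65.3 and 75.5 CPM in bIRI, and 46, 44.4 and 41.4 CPM in BHBNa_bIRI, and its 3 groups did not overlap (log2 fold change -0.68, SE 0.17, adjusted p = 0.0358). Tufm, the elongation factor that delivers aminoacyl-tRNA, had 233, 229.9 and 255 CPM in sham, 93.5 and 90.9 CPM in bIRI, and 134, 118 and 161 CPM in BHBNa_bIRI. It fell in bIRI (log2 fold change -1.38, SE 0.20, adjusted p = 0.000872) and was 0.58 higher on the log2 scale after pretreatment, which did not pass (adjusted p = 0.0673).

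The mitochondrial aminoacyl-tRNA synthetases and their partners, 20 genes, had 10 lower in bIRI and 9 lower in BHBNa_bIRI, each against sham, with medians of -0.61 and -0.54. Gatb, part of the enzyme that makes glutaminyl-tRNA, had 112, 101 and 99.2 CPM in sham, 26.4 and 22.7 CPM in bIRI, and 28.6, 30.7 and 39.96 CPM in BHBNa_bIRI, the largest fall of that list in bIRI (log2 fold change -2.09, SE 0.20, adjusted p = 0.000151). Between the injured groups Tars2 was higher and Iars2 lower, with a median of 0.11. Of 11 genes for the copying and reading of mitochondrial DNA, 5 were lower and 1 higher in bIRI, 8 were lower and 1 higher in BHBNa_bIRI against sham, and by edgeR none passed between the injured groups. Polrmt, the mitochondrial RNA polymerase, was lower in bIRI (log2 fold change -0.84, SE 0.17, adjusted p = 0.0047) and in BHBNa_bIRI (log2 fold change -0.62, SE 0.15, adjusted p = 0.008).

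The RNAs of the mitochondrial ribosome were higher in the injured kidneys. The small ribosomal RNA mt-Rnr1 had 616, 585 and 811 CPM in sham, 1271 and 845 CPM in bIRI, and 2066, 1660.0 and 2362 CPM in BHBNa_bIRI. The large ribosomal RNA mt-Rnr2 had 505, 566 and 869 CPM in sham, 1381 and 934 CPM in bIRI, and 2294, 1586 and 2001 CPM in BHBNa_bIRI. In both genes every injured library was above every sham library. Only the difference between BHBNa_bIRI and sham passed, for mt-Rnr1 (log2 fold change 1.60, SE 0.25, adjusted p = 0.00104) and for mt-Rnr2 (log2 fold change 1.60, SE 0.28, adjusted p = 0.00189). These RNAs were read from libraries made by oligo(dT) capture.

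Regulators of nuclear genes for mitochondria moved in both directions. Esrra, a nuclear receptor that drives respiratory genes, had 136, 131 and 146 CPM in sham, 55.7 and 77 CPM in bIRI, and 114, 96.2 and 124 CPM in BHBNa_bIRI. It fell in bIRI (log2 fold change -1.05, SE 0.20, adjusted p = 0.004) and rose with pretreatment (log2 fold change 0.75, SE 0.20, adjusted p = 0.041). Gabpa, the DNA-binding chain of the GA-binding protein, had 21.7, 22.5 and 22.6 CPM in sham, 35.3 and 35.5 CPM in bIRI, and 19.8, 18.6 and 14.4 CPM in BHBNa_bIRI. It rose in bIRI (log2 fold change 0.67, SE 0.18, adjusted p = 0.0168) and was lower after pretreatment (log2 fold change -1.01, SE 0.18, adjusted p = 0.0275). The coactivator gene Ppargc1a had 36.5, 40.6 and 30.7 CPM in sham, 18.4 and 79.3 CPM in bIRI, and 14.1, 12.8 and 11.9 CPM in BHBNa_bIRI, with its bIRI libraries on either side of sham. Ppargc1a was lower in BHBNa_bIRI than in bIRI (log2 fold change -1.92, SE 0.45, adjusted p = 0.0339).

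Cytosolic ribosomal proteins and respiratory chain subunits, both nuclear-encoded, were set beside the 77 genes. Of 83 cytosolic ribosomal protein genes, 3 rose and none fell in bIRI, 49 were higher after pretreatment and 72 were higher than sham, with medians of 0.04, 1.22 and 1.32. Of 80 nuclear genes for respiratory chain and ATP synthase subunits, 43 fell and none rose in bIRI, 30 were higher after pretreatment, and 6 were higher and 21 lower than sham, with medians of -0.94, 0.82 and 0.09. The matching medians of the 77 genes were -0.41, 0.69 and 0.26, and no test compared the lists. With length and GC offsets the respiratory chain list had 2 higher and 41 lower than sham with a median of -0.43, and 21 cytosolic ribosomal protein genes were higher in bIRI than in sham. Neither list had a gene that passed between the injured groups with those offsets, where the medians were 0.15 and 0.56. The median transcript was 914 bases in the cytosolic list and 863 bases in the respiratory chain list.

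**Figure D5:**
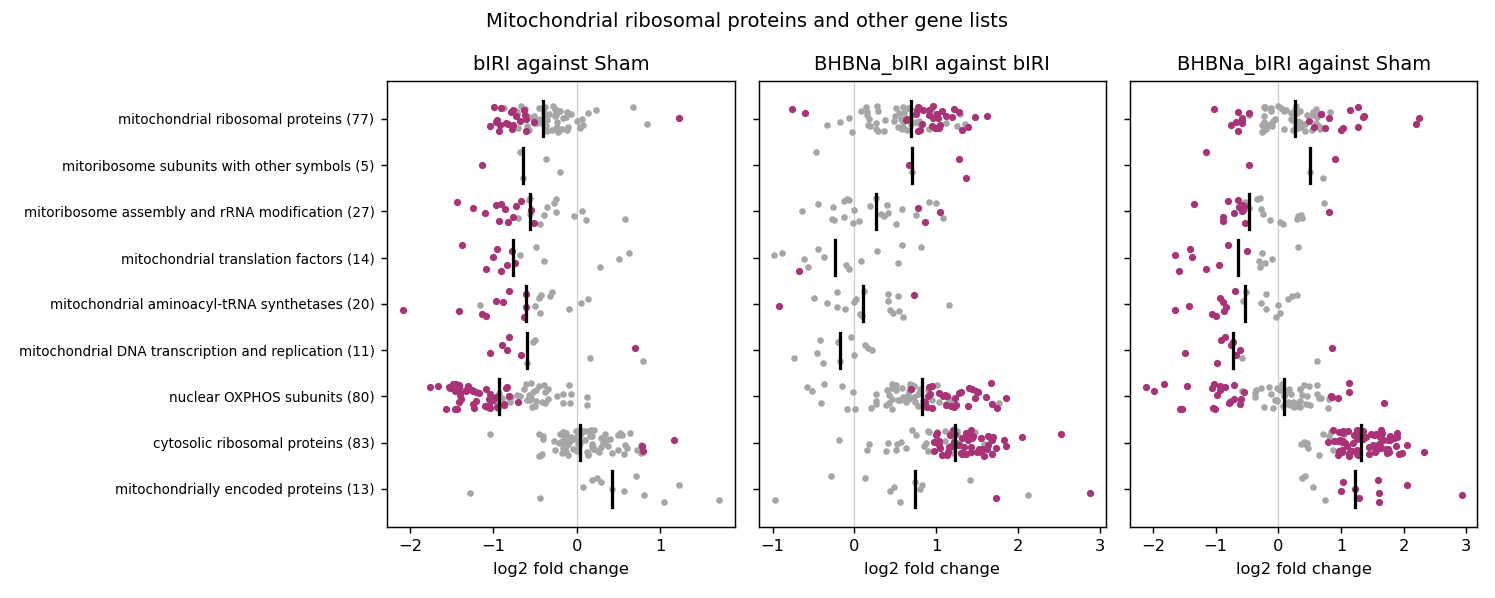
Log2 fold changes of the 77 genes and of 8 other lists (rows, with the number of genes tested) in the 3 comparisons, with purple points for adjusted p under 0.05, grey points for the others and a black bar for the median. The median of the 77 genes lies at -0.41, 0.69 and 0.26, and translation factors have -0.76, -0.24 and -0.65.

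Markers of cell types moved with the groups as well. Of 9 proximal tubule markers 8 fell in bIRI and 8 were lower in BHBNa_bIRI, each against sham, with medians of -2.94 and -2.84. Their summed level was 9552 to 24890 CPM in bIRI and 22460 to 35760 CPM in BHBNa_bIRI, while 1 of the 9, Slc7a13, passed between them, as lower. The 4 thick ascending limb markers summed to 1508 to 4266 CPM in bIRI and 269.9 to 836.8 CPM in BHBNa_bIRI, and 3 were lower. The 6 leukocyte markers summed to 11.7 to 20.2 CPM in sham, 31 to 45.1 CPM in bIRI and 54.7 to 81 CPM in BHBNa_bIRI. Cd68 and S100a8 were higher than sham in both injured groups and Cd3e was lower, with 3 of the 6 values above 0 and medians of -0.47 and -0.16. No marker of these lists was at 0 in all libraries, and the part of these shifts in the values of the 77 genes was not tested.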

How the data were processed

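The deposited values are raw read counts per gene, 1 table per library. The submitters' processing notes name HISAT2, featureCounts of Subread, DESeq2 and the build mm10. Their versions, the annotation and the strand setting are not given in the sources used here. All members and gene lists were chosen with earlier results of these data known.

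Symbols came from GENCODE M21, which named 29220 of 29678 genes. The filterByExpr function of edgeR 4.0.16 (R 4.3.3, limma 3.58.1) kept 17967 genes. TMM-scaled counts of 8 libraries were fitted with edgeR's robust quasi-likelihood model, 1 mean per group, with 5 residual degrees of freedom. Tests were two-sided, with Benjamini-Hochberg adjustment within each comparison and a threshold of 0.05. Length is that of the longest transcript. In each library, length and GC trends were splines with 5 degrees of freedom. The procedure without offsets was run on simulated counts for BHBNa_bIRI against bIRI. It called 28 of 100 genes changed 2-fold, 93 of 100 changed 4-fold and 5 of 17340 unchanged genes. Most 2-fold changes were thus missed, so a gene that did not pass may still differ by that much. The fit with offsets was not simulated.

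Named genes were, per comparison and direction, up to 10 called genes with the largest change and a group mean of at least 5 CPM, the 3 highest and 3 lowest in sham per kb, 13 genes fixed by role, and up to 3 called genes of each other list. Mrpl9, Mrpl20, Mrpl21, Mrpl41, Mrpl46, Mrpl49, Mrps15, Mrps16, Mrps26 and Mrps27 were named after their values were seen, to complete counts or from the promoter search. Alternatives were DESeq2 1.42.0, other scalings and filters, all 9 tables, the compared groups alone, a replicate block, offsets, and leaving out each library.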

Additional observations from a re-analysis of the deposited data

How the results depend on the processing

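The setting with all 9 tables counts the averaged bIRI replicate 2 table as a library, and so understates the spread within bIRI. In bIRI against sham, 20 of the 77 genes were lower and 1 higher. The number lower was 32 with all 9 tables, 11 with only the groups compared and 12 with length and GC offsets plus the replicate block, and ran from 7 (without sham replicate 3) to 51 (without bIRI replicate 1) when 1 library was left out. The number higher was 3 with the offsets, 3 with coding-length offsets, 2 with offsets plus block, and 1 to 3 when 1 library was left out. The median ran from -0.76 (without bIRI replicate 1) to -0.22 (without bIRI replicate 3).

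In BHBNa_bIRI against bIRI, 30 were higher and 2 lower. The number higher was 52 with all 9 tables, the averaged bIRI table among them. It was 3 with coding-length offsets, an alternative chosen after seeing the data. It was 0 with length and GC offsets, with offsets plus block, with the replicate block and with only the groups compared. It ran from 0 to 62 when 1 library was left out. The number lower was 1 without a low-count filter, with scaling that left out mitochondrially encoded and top genes, and with coding-length offsets, was 0 under the other settings that gave 0, and was 0 when 1 sham or BHBNa_bIRI library was left out. The median was 0.21 with offsets, 0.25 with offsets plus block, 0.31 with coding-length offsets, and 0.48 to 1.01 when 1 library was left out. In BHBNa_bIRI against sham, 15 were higher and 9 lower. The number higher was 31 with only the groups compared and 7 to 28 when 1 library was left out. The number lower was 17 with offsets, 18 with coding-length offsets and 4 to 10 when 1 library was left out. The median there ran from 0.20 to 0.36 when 1 library was left out, and was 0.064 with offsets, 0.079 with coding-length offsets and 0.062 with offsets plus block. Apart from the length and GC settings, the cause of these moves was not tested. RLE factors left each of these counts within 1.5 times its value.

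Deviations of same-numbered libraries from their group means correlated between -0.206 and 0.0925. The 2 bIRI deviations mirror each other, and the other groups have 3 libraries each. These correlations therefore cannot decide whether the replicate numbers pair the libraries. With the replicate number as a block, 0 of 77 genes passed in BHBNa_bIRI against bIRI by edgeR (lowest adjusted p = 0.0711, with 52 higher and 2 lower at an unadjusted p under 0.05), 15 were lower and 1 higher in bIRI against sham, and 13 were higher and 7 lower in BHBNa_bIRI against sham. Shares of all genes with the block, adjusted or not, are not given here.

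Some single values changed sign. Of the 32 calls in BHBNa_bIRI against bIRI 3 did so. With offsets and with offsets plus block, Mrpl52 was -0.30 and -0.24, Mrps15 was -0.12 and -0.080, and Mrpl46 was -0.061 and -0.030, and with coding-length offsets Mrpl52 was -0.052. Of the 24 calls against sham, Mrpl41 did so with offsets plus block (-0.00289). The others had not passed. In bIRI against sham, leaving out 1 library at a time gave Mrps18b -0.000451 to 0.20, Mrps18c -1.15 to 0.45 and Mrps30 -1.30 to 0.11, and in BHBNa_bIRI against bIRI it gave Mrpl3 -0.037 to 0.45 and Mrps12 -0.00354 to 0.30. In that comparison, with length and GC offsets, with coding-length offsets and with offsets plus block in turn, Mrpl12 was -0.39, -0.40 and -0.33, Mrps12 was -0.81, -0.78 and -0.78, and Mrps18a was -0.32, -0.11 and -0.32, while Mrpl44 was -0.076 with offsets and -0.065 with offsets plus block. In BHBNa_bIRI against sham, over the same 3 settings, Mrps18a was -0.37, -0.18 and -0.37, Mrps35 was 0.19, 0.081 and 0.18, and Mrps5 was 0.073, 0.099 and 0.073, and leaving out 1 library gave Mrps36 -0.35 to 0.00901 and Mrpl28 -0.27 to 0.017.

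Depth did not limit these genes, since the lowest count was 231. The limits are 2 bIRI libraries that differ from each other, shared libraries between the comparisons, and transcript lengths that vary with the annotation.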
